A study of Mus musculus with 21 samples.

Results

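The genes studied here are 10 that encode enzymes, and partners of enzymes, that write, copy and remove DNA methylation in mouse embryonic stem cells. They comprise the maintenance methyltransferase Dnmt1 with its partners Uhrf1 and Uhrf2, the de novo methyltransferases Dnmt3a and Dnmt3b with their cofactor Dnmt3l, the 5-methylcytosine dioxygenases Tet1, Tet2 and Tet3, and the DNA glycosylase Tdg. They were taken by symbol from a table of 20900 genes, with no use of their values, and 9 of the 10 were abundant enough to be tested. Tdg was not.

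The cells were E14, a mouse embryonic stem cell line of the 129 strain, grown in serum with the cytokine LIF and plated the day before treatment. Their medium was changed to one with 1 µM of BMH-21 or of CX-5461, compounds that stop ribosomal DNA from being transcribed by its dedicated polymerase, RNA polymerase I. Poly(A) RNA was sequenced from 3 libraries in each of 7 groups: cells at 0 h, which served as the control, and cells after 2, 4 and 8 h of each inhibitor. The control was a single set of 0 h libraries shared by all 6 comparisons with control, so changes that come with time in fresh medium cannot be told apart from those of the inhibitors. Nothing says that the 3 libraries of a group came from separate cultures, so the p-values measure only the spread between these libraries.

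In mammals methyl groups are placed on cytosines of CpG dinucleotides. DNMT1 copies the pattern to the new strand after replication, guided by UHRF1, which binds hemimethylated CpG sites, whereas DNMT3A and DNMT3B methylate unmodified sites. TET enzymes oxidise 5-methylcytosine stepwise, and TDG excises the later oxidation products so that repair restores an unmodified cytosine. Embryonic stem cells express both sides of this cycle, and the present data measure its messenger RNAs, not protein or methylation.

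The libraries held 46604397 to 62812641 reads in the table. Values are the deposited log2 of reads per effective library size, in which each library carries a scaling factor from 0.832 to 1.375. A factor moves all genes of its library together. The median difference from control over the 14666 genes tested was -0.40 at 8 h of BMH-21 and 0.11 at 8 h of CX-5461. Each change is therefore also given after centring every library on its own median, which removed a shift of -0.21 and 0.22 from these 2 comparisons. Replicate 2 of BMH-21 at 8 h had both the most reads and the largest factor.

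Markers of cell types were followed as well. Of the 10 embryonic stem cell markers examined all were tested, and their summed log2 level was 12.67 to 12.86 in control, 11.57 to 11.68 at 8 h of BMH-21 and 12.51 to 12.62 at 8 h of CX-5461. All 10 of these fell at 8 h of BMH-21, and 1 rose and 7 fell at 8 h of CX-5461. Marker changes were counted on the deposited scale where limma's adjusted p was under 0.05. Of all genes tested 24.5% rose and 56.9% fell at 8 h of BMH-21, and 35.1% rose and 14.3% fell at 8 h of CX-5461. The other marker counts in this paragraph are to be read against the same shares. Of 6 trophectoderm markers 5 were tested, and their summed level was 6.51 to 6.65 in control, 6.96 to 7.21 at 8 h of BMH-21 and 7.13 to 7.33 at 8 h of CX-5461, where 3 and 4 of the 5 rose. At 8 h of BMH-21 Eomes fell by 1.10 and Krt8 by 0.29. Cdx2 and Gata3, which rose there, had as few as 13 and 24 reads. In control Cdx2, Eomes, Gata3 and Krt8 stood at -0.34, 2.18, 0.12 and 4.0, so most of the sum came from other listed markers. Of 6 primitive endoderm markers 5 were tested and 2 rose at 8 h of each inhibitor, among them Pdgfra by 2.01 and 0.92, with sums of 3.89 to 4.2, 4.11 to 4.38 and 4.22 to 4.30. Dab2 and Gata4 of the same list fell at 8 h of BMH-21, by 1.06 and 0.70, so the list was split there. All 6 neural and mesoderm markers were tested, with sums of 5.87 to 6.02, 5.40 to 5.71 and 6.41 to 6.56. Pax6 fell by 3.05 at 8 h of BMH-21 and 0.46 at 8 h of CX-5461, and T fell by 0.60 in BMH-21. Nes, at 5.51 in control, rose by 0.72 and Mixl1 by 0.70 at 8 h of CX-5461, so this list was split there. Of 8 fibroblast markers 4 were tested, with sums of 9.32 to 9.39, 7.58 to 8.23 and 8.66 to 8.74. Among them Fn1, at 9.28 in control, fell by 1.55 at 8 h of BMH-21 and Col1a1 rose by 1.86 and 1.24, while Lum had 0 to 2 and Postn 0 to 14 reads per library. The part of these shifts in the results below was not tested. In RNA from whole cultures, fewer cells of a type and less RNA per cell cannot be told apart.

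Per kb of the longest coding transcript, Dnmt3l was the most abundant of the 10 messages in control cells, at a mean log2 level of 8.40 (SD 0.15, n = 3). Uhrf1 followed at 7.18 and Dnmt3b at 7.14, and these neighbours overlapped between libraries. Dnmt1 stood at 6.17, Dnmt3a at 5.43 and Tet1 at 4.80, with no overlap between neighbours. Uhrf2 at 3.89 and Tet2 at 3.67 lay lower. Tet3, at -0.14, and Tdg, at -2.80, were the rarest. With all annotated exons as the length, Tet1 (4.70) passed Dnmt3a (4.65) and Tet2 (2.79) passed Uhrf2 (2.61), so these 2 neighbouring pairs have no firm order.

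Promoter sequences are shown for the genes with a match to an E2F word and for those that moved most. RefSeq lists 17 promoters for the 10 genes on mouse build GRCm38.p6, each covering 250 bases before and 50 after a start site. Words known to be bound by E2F, a factor of replication genes, were searched as the 8-base strings TTTCCCGC, TTTGGCGC, TTTCGCGC and TTTGCCGC on both strands. Of the 17 promoters 2 held a match, those printed for Dnmt1 and Uhrf1, and of all 32851 promoters 2.3% did. In the Dnmt1 promoter, chr9:20952574-20952873 on the minus strand, the matches began at positions -219 and 34 from the start. In the Uhrf1 promoter, chr17:56304063-56304362 on the plus strand, the match began at -185. Both are printed 5′ to 3′ with the matches in capitals.

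Dnmt1: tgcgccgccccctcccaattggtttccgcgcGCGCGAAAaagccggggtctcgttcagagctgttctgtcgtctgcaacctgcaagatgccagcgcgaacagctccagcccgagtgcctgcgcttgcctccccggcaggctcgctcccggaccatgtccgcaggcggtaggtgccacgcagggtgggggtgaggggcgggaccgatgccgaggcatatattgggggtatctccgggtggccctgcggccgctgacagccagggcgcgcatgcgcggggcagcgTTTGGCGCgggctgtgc
Uhrf1: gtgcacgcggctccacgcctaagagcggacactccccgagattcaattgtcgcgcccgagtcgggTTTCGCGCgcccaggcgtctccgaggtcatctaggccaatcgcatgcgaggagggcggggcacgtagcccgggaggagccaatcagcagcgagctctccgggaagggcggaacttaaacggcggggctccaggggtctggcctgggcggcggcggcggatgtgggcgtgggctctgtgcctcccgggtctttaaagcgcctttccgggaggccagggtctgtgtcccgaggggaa

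The remaining 4 sequences show the range of CpG content among genes that moved most, with every CpG in capitals. The Tet2 promoter, chr3:133544341-133544640 on the minus strand, held 57 CpG, more than 99.8% of all promoters in the table, where the median was 7. The Tet3 promoter, chr6:83441629-83441928 on the minus strand, held 22. The Dnmt3b promoter, chr2:153649199-153649498 on the plus strand, held 30. Dnmt3l, the first of whose 3 listed promoters lies at chr10:78042037-78042336 on the plus strand, held 6 there. The Dnmt3b window spans the start of the annotated gene, and those of the other 5 genes printed lie within their genes' spans. A match or a count of CpG describes these windows only.

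Tet2: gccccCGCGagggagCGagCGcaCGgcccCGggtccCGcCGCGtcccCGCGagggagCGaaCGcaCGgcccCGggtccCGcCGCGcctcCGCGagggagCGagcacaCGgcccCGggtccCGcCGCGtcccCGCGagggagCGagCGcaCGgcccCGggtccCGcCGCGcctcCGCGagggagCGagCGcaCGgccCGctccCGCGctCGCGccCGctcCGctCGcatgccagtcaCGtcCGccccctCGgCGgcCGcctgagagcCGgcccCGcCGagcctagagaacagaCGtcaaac
Tet3: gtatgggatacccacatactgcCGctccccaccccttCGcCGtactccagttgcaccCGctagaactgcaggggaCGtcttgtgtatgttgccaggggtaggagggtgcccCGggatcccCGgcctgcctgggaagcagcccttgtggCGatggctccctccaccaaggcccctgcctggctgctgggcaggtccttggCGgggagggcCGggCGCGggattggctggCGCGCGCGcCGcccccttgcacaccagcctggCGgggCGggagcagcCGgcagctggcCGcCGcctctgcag
Dnmt3b: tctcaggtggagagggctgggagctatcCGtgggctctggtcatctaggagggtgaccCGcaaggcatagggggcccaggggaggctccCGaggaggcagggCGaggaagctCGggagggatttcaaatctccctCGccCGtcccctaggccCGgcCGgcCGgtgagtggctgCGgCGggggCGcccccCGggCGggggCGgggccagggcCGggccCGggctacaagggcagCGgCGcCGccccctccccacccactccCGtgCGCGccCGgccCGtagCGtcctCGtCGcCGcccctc
Dnmt3l: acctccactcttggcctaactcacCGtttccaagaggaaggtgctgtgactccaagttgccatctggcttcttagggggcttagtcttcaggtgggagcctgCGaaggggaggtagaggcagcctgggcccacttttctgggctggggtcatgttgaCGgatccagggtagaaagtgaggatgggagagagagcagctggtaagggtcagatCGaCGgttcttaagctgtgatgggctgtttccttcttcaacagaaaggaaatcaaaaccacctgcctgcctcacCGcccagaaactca

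**Figure D1:**
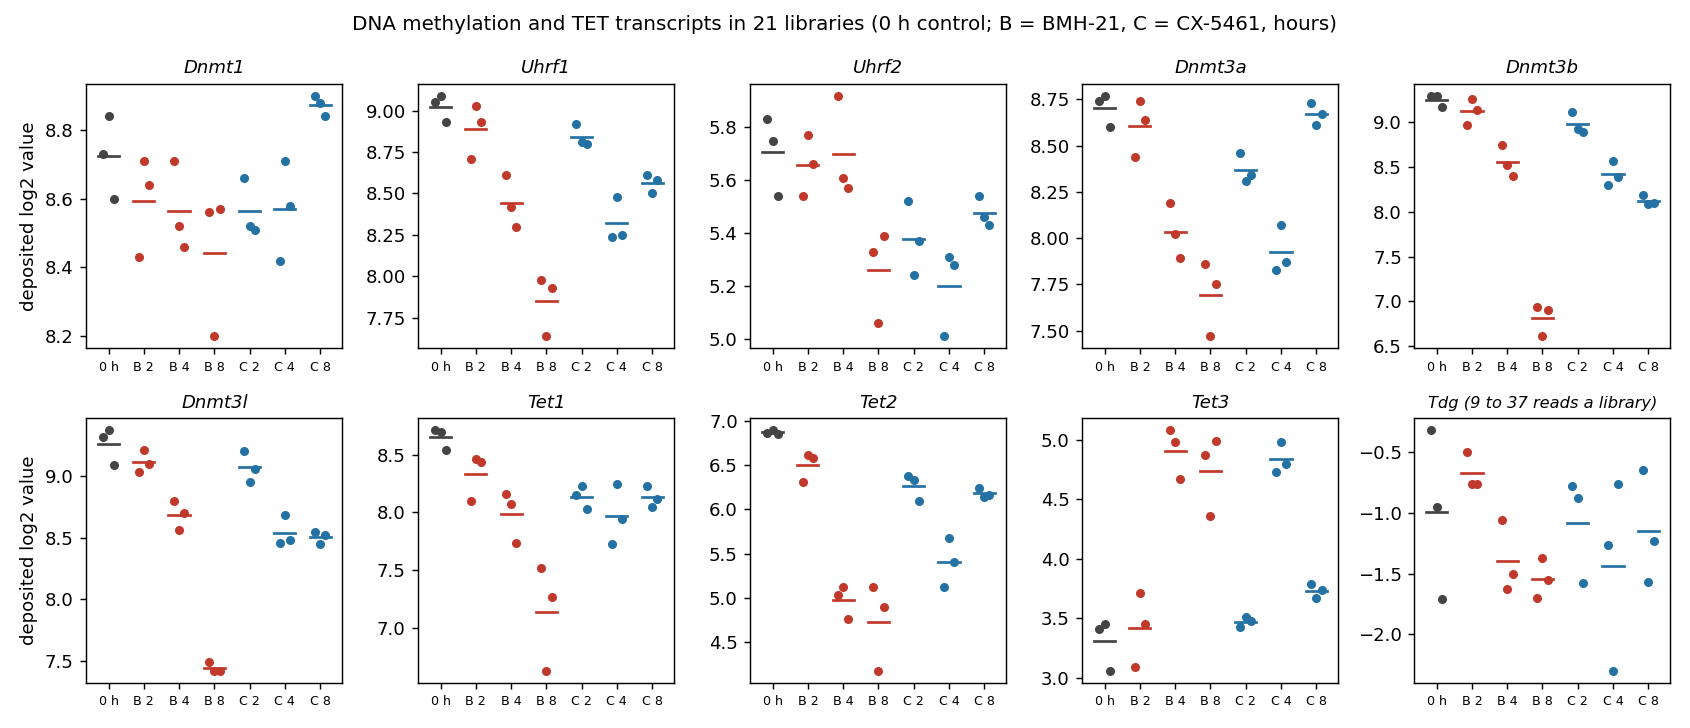
Deposited log2 value (vertical axis, its own range in each panel) of the 10 genes in the 21 libraries, by group; points are libraries and bars are group means. Dnmt3b lies between 6.61 and 6.93 at 8 h of BMH-21 against 9.17 to 9.30 in control, and Tet3 between 4.67 and 5.08 at 4 h of BMH-21 against 3.06 to 3.45.

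Against control, most of the 9 tested genes fell by 4 h of either inhibitor and Tet3 rose. Dnmt3b had the largest fall at 8 h of each inhibitor. A change was counted where limma's adjusted p, over all genes tested, was under 0.05. At 2 h of BMH-21 0 of 9 rose and 2 fell (Tet1 and Tet2), where 8.48% of all genes rose and 11.2% fell, and neither fall passed after centring (18.6% and 17.5% of all genes). Without control replicate 1, control replicate 2 or BMH-21 2 h replicate 1 the count was 0 as well. At 4 h of BMH-21 1 rose and 6 fell, where 22.1% of all genes rose and 44.9% fell. Their median log2 difference was -0.58, against -0.21 for all genes, and after centring 2 rose and 6 fell (32.2% and 41.5% of all genes). By 8 h of BMH-21 1 rose and 8 fell, where 24.5% of all genes rose and 56.9% fell. The median was then -1.17, against -0.40 for all genes, and after centring 1 rose and 7 fell (33.3% and 51.3% of all genes). With median-ratio factors 1 rose and 6 fell (39.2% and 43.3% of all genes).

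With CX-5461 more of the genes had fallen at 4 h than at 8 h on the deposited scale. At 2 h 0 rose and 5 fell, where 7.45% of all genes rose and 20.5% fell, and after centring 1 rose and 5 fell (15.8% and 17.8% of all genes). The 5 became 2 without control replicate 1 or 2 or without CX-5461 2 h replicate 2 or 3. By 4 h 1 rose and 7 fell, where 19.8% of all genes rose and 51.2% fell, with a median of -0.70 against -0.28 for all genes. After centring the 4 h count was again 1 and 7 (28.5% and 45.7% of all genes), and with median-ratio factors it was 2 and 7 (33.3% and 36.5%). At 8 h 1 rose and 5 fell, where 35.1% of all genes rose and 14.3% fell, with a median of -0.46 against 0.11 for all genes. After centring 0 rose and 7 fell at 8 h (29.3% and 44.7% of all genes). Without control replicate 3 the 1 rise, of Tet3, was not counted. The falls at 8 h of CX-5461 thus stood against a background that itself turned from mostly higher to mostly lower with the scaling.

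**Figure D2:**
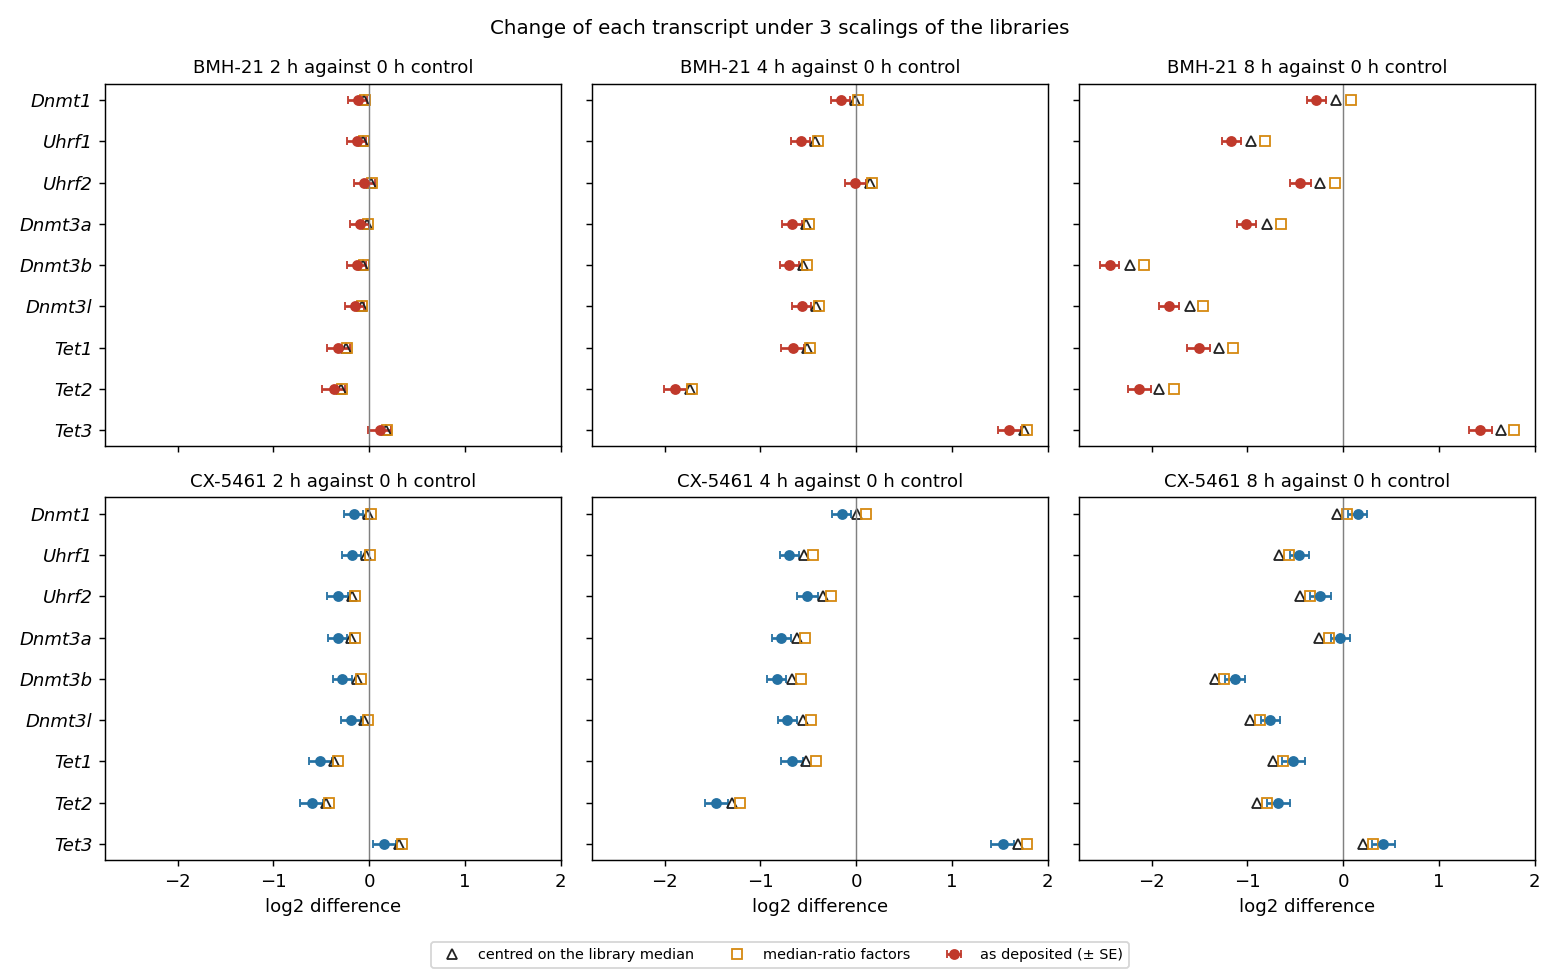
Log2 difference from the 0 h control (horizontal axis) of the 9 tested genes at each time of BMH-21 (red) and CX-5461 (blue); filled points are deposited values with their SE, triangles follow centring and squares follow median-ratio factors. Dnmt1 lies near 0 under each of these scalings, from -0.28 to 0.15, while Dnmt3b reaches -2.44 and Tet3 1.79.

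Dnmt1 (chr9:20907209-20959888, minus strand, GENCODE annotation of GRCm38, as for all genes below) had no direction that held under all scalings at 8 h. Its log2 values were 8.73, 8.84 and 8.60 in control, 8.56, 8.20 and 8.57 at 8 h of BMH-21, and 8.90, 8.88 and 8.84 at 8 h of CX-5461. On the deposited scale every BMH-21 library at 8 h was below, and every CX-5461 library above, the control libraries. The fall in BMH-21, of -0.28 (SE 0.10, limma adjusted p = 0.011), was -0.07 (adjusted p = 0.14) after centring and turned to a rise of 0.44 (adjusted p = 2.1e-09) with quantile normalization. The 8 h difference in CX-5461 was 0.15 (adjusted p = 0.23), or -0.06 after centring. Without control replicate 2 or BMH-21 8 h replicate 2 the Dnmt1 fall was -0.22 or -0.16 (adjusted p = 0.075 and 0.18).

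Uhrf1 (chr17:56303321-56323486, plus strand), which brings DNMT1 to hemimethylated DNA, fell at 4 and 8 h of both inhibitors. Its log2 values were 9.05, 9.09 and 8.93 in control, 7.98, 7.64 and 7.93 at 8 h of BMH-21, and 8.61, 8.50 and 8.58 at 8 h of CX-5461. The 3 groups did not overlap. Uhrf1 fell by 0.58 at 4 h and 1.17 at 8 h of BMH-21 (SE 0.10, limma adjusted p = 4.2e-07 and 3.4e-20), the latter a 2.25-fold decrease. In CX-5461 it fell by 0.70 at 4 h and 0.46 at 8 h (adjusted p = 2.7e-09 and 8.7e-05). After centring these 4 differences were -0.43, -0.96, -0.54 and -0.67, all past the threshold. At 8 h of BMH-21 12.7% of tested genes had a lower deposited difference than Uhrf1. Of the 50-base words of its longest coding transcript, 18.9% also occur in other genes, mainly the processed pseudogene Gm5648, so its reads may be split.

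Uhrf2 (chr19:30030513-30093722, plus strand), the paralogue of Uhrf1, was the rarer per kb in control, at a log2 level of 3.89 against 7.18. It stood at 5.83, 5.75 and 5.54 in control, 5.33, 5.06 and 5.39 at 8 h of BMH-21, and 5.01, 5.31 and 5.28 at 4 h of CX-5461. Both treated groups lay wholly below control. The fall was 0.45 at 8 h of BMH-21 (SE 0.11, limma adjusted p = 1.6e-04), which among the scalings missed the threshold only with median-ratio factors (-0.09), and 0.51 at 4 h of CX-5461 (adjusted p = 3.6e-05). At 4 h of BMH-21 the difference was -0.01 as deposited and 0.14 after centring (adjusted p = 0.016), so its sign there is set by the scaling.

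Reads of Uhrf1 over Dnmt1 within a library do not depend on any scaling. This ratio was 1.19 to 1.26 in control and 1.22 to 1.24 at 2 h of BMH-21. It lay at 0.644 to 0.681 at 8 h of BMH-21 and 0.768 to 0.838 at 8 h of CX-5461. All 6 libraries at 8 h thus lay below the 3 control libraries. Transcript lengths differ, so only the change in such a ratio, not its distance from equal reads, compares between genes. This ratio and those below were chosen after the values were seen and carry no test.

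Among the genes of de novo methylation, Dnmt3b (chr2:153649450-153687730, plus strand) had the largest difference from control at 8 h. Dnmt3b stood at 9.30, 9.30 and 9.17 in control, 8.75, 8.52 and 8.40 at 4 h of BMH-21, and 6.93, 6.61 and 6.90 at 8 h. These 3 groups were fully separate. It fell by 0.70 at 4 h and fell by 2.44 at 8 h (SE 0.10, limma adjusted p = 3.0e-09 and 5.3e-46), the latter a 5.43-fold decrease, or -2.23 after centring. Only 0.9% of tested genes had a lower difference at 8 h of BMH-21. In CX-5461 its values were 8.30, 8.57 and 8.39 at 4 h and 8.19, 8.09 and 8.10 at 8 h, again below every control library. The falls there were 0.83 and 1.13 (adjusted p = 5.4e-12 and 1.8e-18), and 0.3% of tested genes had a lower difference at 8 h. Dnmt3c, a near copy that is not analysed here, shares 11.5% of the Dnmt3b words.

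Dnmt3l (chr10:78041947-78063622, plus strand), whose product has no catalytic activity and stimulates DNMT3A and DNMT3B, fell as well. It stood at 9.32, 9.37 and 9.09 in control, 7.49, 7.42 and 7.42 at 8 h of BMH-21, and 8.55, 8.45 and 8.52 at 8 h of CX-5461. No library of one group reached another. Dnmt3l fell by 1.82 at 8 h of BMH-21 (SE 0.10, limma adjusted p = 4.1e-35) and by 0.76 at 8 h of CX-5461 (adjusted p = 1.1e-10). After centring the differences were -1.60 and -0.97. Dnmt3l overlaps Aire on the opposite strand, and whether the counting used strand is not given in the sources used here.

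Dnmt3a (chr12:3806007-3914443, plus strand) fell at 4 and 8 h of BMH-21 and at 2 and 4 h of CX-5461. Its values were 8.74, 8.77 and 8.60 in control, 8.19, 8.02 and 7.89 at 4 h of BMH-21, and 7.86, 7.47 and 7.75 at 8 h. In CX-5461 they were 7.83, 8.07 and 7.87 at 4 h but 8.73, 8.61 and 8.67 at 8 h, within the range of control. It fell by 0.67 and 1.01 at 4 and 8 h of BMH-21 (SE 0.10, limma adjusted p = 1.1e-08 and 2.9e-16) and by 0.78 at 4 h of CX-5461 (adjusted p = 6.9e-11). The fall of 0.33 at 2 h of CX-5461 (adjusted p = 0.011) was -0.19 after centring (adjusted p = 8.2e-04), and it missed the threshold on leaving out control replicate 1 or 2 or CX-5461 2 h replicate 2 or 3 (adjusted p = 0.051 to 0.066). At 8 h of CX-5461 the difference from control was -0.03 (adjusted p = 0.83), which became -0.25 after centring (adjusted p = 9.3e-06) and 0.19 with quantile normalization (adjusted p = 3.0e-04). At 8 h of BMH-21 18.0% of tested genes had a lower deposited difference than Dnmt3a. Dnmt3a overlaps Dnmt3aos on the opposite strand.

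The ratio of the 2 catalytic enzymes' messages differed from control mainly at 8 h. Reads of Dnmt3b over Dnmt3a were 1.44 to 1.48 in control and still 1.42 to 1.47 at 4 h of BMH-21 and 1.39 to 1.44 at 4 h of CX-5461. At 8 h the ratio was 0.527 to 0.556 in BMH-21 and 0.671 to 0.696 in CX-5461. Per kb, Dnmt3b remained the more abundant message, with 12.9% of the DNMT messages against 10.5% for Dnmt3a at 8 h of BMH-21 and 16.7% against 10.9% at 8 h of CX-5461. Dnmt3b over Dnmt1 moved earlier, from 1.38 to 1.49 in control to 0.958 to 1.03 at 4 h of BMH-21 and 0.315 to 0.332 at 8 h. In CX-5461 that ratio was 0.882 to 0.915 at 4 h and 0.575 to 0.614 at 8 h.

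**Figure D3:**
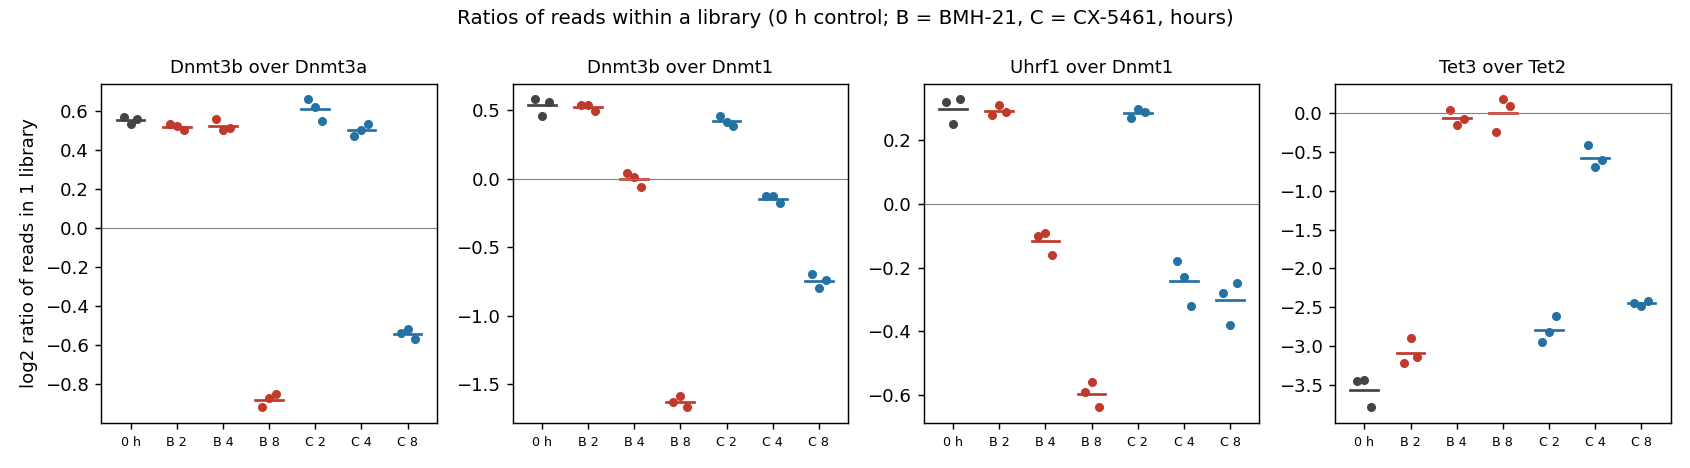
Log2 ratio of reads of 2 genes in the same library (vertical axis) by group; points are libraries, bars are means and the grey line marks equal reads, which do not mean equal messages per kb. Dnmt3b over Dnmt3a stays at 1.39 to 1.58 up to 4 h and lies at 0.527 to 0.696 at 8 h, whereas Tet3 over Tet2 is already near 1 at 4 h of BMH-21.

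Counted per kb, Dnmt1 made up 12.1 ± 0.33% (SD, n = 3) of the messages of the 4 DNMT genes in control. Its share was 29.3 ± 2.0% at 8 h of BMH-21 and 20.7 ± 0.65% at 8 h of CX-5461. Dnmt3b went from 23.8 ± 0.80% in control to 12.9 ± 0.59% and 16.7 ± 0.27%. Dnmt3l held 56.8 ± 1.0% in control, 47.3 ± 3.1% at 8 h of BMH-21 and 51.7 ± 0.63% at 8 h of CX-5461, and stayed the most abundant of the 4 in each group.

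**Figure D4:**
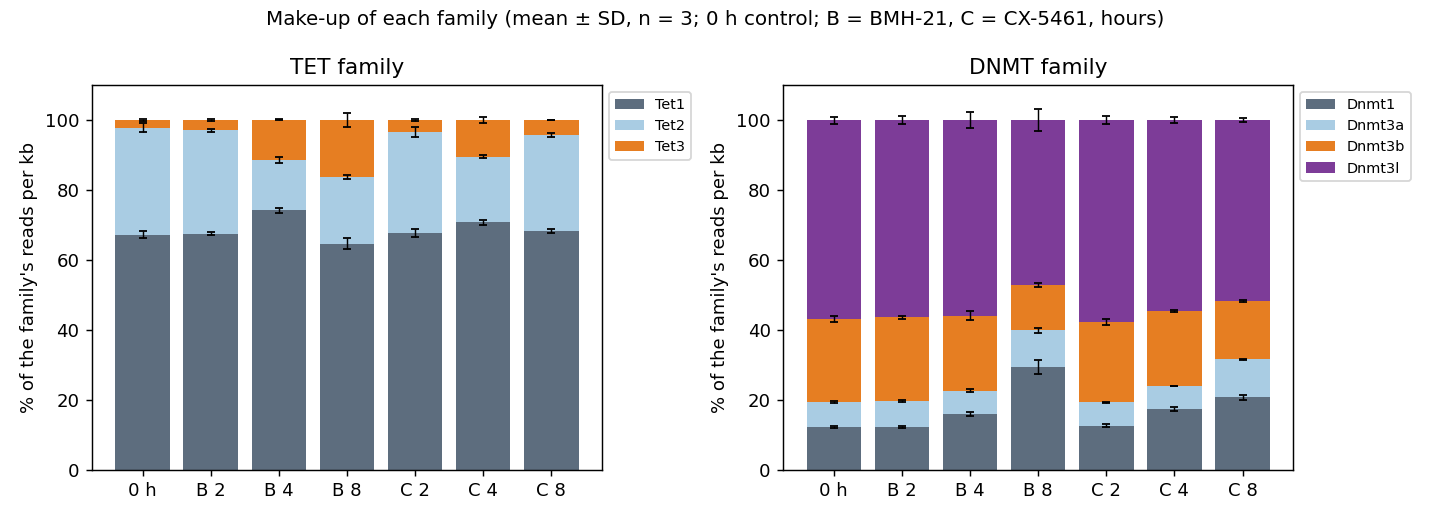
Share of each gene in the length-scaled reads of the TET genes (left) and the DNMT genes (right), in percent (vertical axis), as the mean of 3 libraries per group; each error bar is the SD of the segment below it. Tet3 makes up 2.19% in control and 16.3% at 8 h of BMH-21, and Dnmt1 12.1% and 29.3%.

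Of the TET genes, Tet1 and Tet2 fell and Tet3 rose. Tet2 (chr3:133463679-133545139, minus strand) stood at 6.86, 6.89 and 6.85 in control, 5.04, 5.13 and 4.76 at 4 h of BMH-21, and 5.12, 4.18 and 4.90 at 8 h. In CX-5461 its values were 5.13, 5.68 and 5.41 at 4 h and 6.24, 6.14 and 6.16 at 8 h. Every one of these treated libraries was below every control library. Tet2 fell by 1.89 at 4 h and 2.13 at 8 h of BMH-21 (SE 0.12, limma adjusted p = 3.1e-29 and 8.4e-34), folds of 3.71 and 4.38. In CX-5461 it fell by 1.46 at 4 h and by 0.68 at 8 h (adjusted p = 6.1e-21 and 8.7e-07). After centring these differences were -1.74, -1.92, -1.30 and -0.90. At 4 h of BMH-21 only 1.0% of tested genes had a lower difference than Tet2.

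Tet1 (chr10:62804570-62908996, minus strand), the most abundant TET message in these cells, fell too. It stood at 8.71, 8.70 and 8.54 in control, 7.52, 6.63 and 7.27 at 8 h of BMH-21, and 8.23, 8.05 and 8.12 at 8 h of CX-5461. The 3 groups did not overlap, though replicate 2 of BMH-21 was well below its fellows. Tet1 fell by 1.51 at 8 h of BMH-21 (SE 0.12, limma adjusted p = 1.2e-23) and by 0.52 at 8 h of CX-5461 (adjusted p = 9.9e-05). Without replicate 2 the BMH-21 differences at 8 h were -1.26 for Tet1 and -1.85 for Tet2. The falls of 0.32 for Tet1 and 0.37 for Tet2 at 2 h of BMH-21 (adjusted p = 0.044 and 0.022) became -0.24 and -0.29 after centring, with adjusted p of 0.099 and 0.065. At 2 h of CX-5461 the falls were larger, 0.51 for Tet1 and 0.60 for Tet2 (adjusted p = 3.5e-04 and 5.1e-05), and stood at -0.37 and -0.45 after centring (adjusted p = 0.013 and 0.0052). They passed under every scaling and without any 1 library, but with its own variance Tet1 missed the threshold (adjusted p = 0.075 for Tet1 and 0.046 for Tet2).

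Tet3 (chr6:83362373-83459084, minus strand), the family member best known from the oocyte and zygote, was the one gene of the 9 that rose against control on the deposited scale. It stood at 3.41, 3.45 and 3.06 in control, 5.08, 4.98 and 4.67 at 4 h of BMH-21, and 4.87, 4.36 and 4.99 at 8 h. In CX-5461 its values were 4.73, 4.98 and 4.80 at 4 h and 3.79, 3.67 and 3.74 at 8 h. All 12 of these treated libraries lay above control, the last 3 only narrowly. Tet3 rose by 1.60 at 4 h and 1.43 at 8 h of BMH-21 (SE 0.12, limma adjusted p = 2.0e-23 and 1.4e-20), folds of 3.03 and 2.70. In CX-5461 it rose by 1.53 at 4 h (adjusted p = 6.1e-22) and by 0.42 at 8 h (adjusted p = 0.0027), where the difference after centring was 0.21 (adjusted p = 0.071) and without control replicate 3 it was 0.30 (adjusted p = 0.073). Under centring the other rises were larger, at 1.75, 1.65 and 1.69. On the deposited scale 92.7%, 89.0% and 92.9% of tested genes had a lower difference than Tet3 in these comparisons. Tet3 overlaps B230319C09Rik on the opposite strand.

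Replicates of the TET genes scattered more than the moderated spread that the model used for them. The within-group SD of the log2 values was 0.237 for Tet1, 0.242 for Tet2 and 0.214 for Tet3, against moderated values of 0.144, 0.151 and 0.153. Their adjusted p-values therefore rest on a smaller spread than their own libraries showed, and may be too small. With each gene's own variance, a choice made after seeing the data, the 8 h falls in BMH-21 had adjusted p of 5.2e-06 for Tet1 and 1.8e-07 for Tet2, and the Tet3 rise 3.1e-06. The Tet3 rise at 8 h of CX-5461 did not pass with its own variance (adjusted p = 0.061).

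Tet3 and Tet2 reads in the same library give a ratio free of scaling. Tet3 over Tet2 was 0.0724 to 0.092 in control, 0.898 to 1.03 at 4 h of BMH-21 and 0.841 to 1.13 at 8 h. In CX-5461 it was 0.614 to 0.755 at 4 h and 0.179 to 0.186 at 8 h, between the values of control and of 4 h. Per kb, Tet3 made up 2.19 ± 0.21% (SD, n = 3) of the TET messages in control, 11.5 ± 0.15% at 4 h and 16.3 ± 2.0% at 8 h of BMH-21. At 8 h of CX-5461 its share was 4.25 ± 0.066%. Tet1 stayed the main TET message, with 64.6% to 74.1% on average in each group.

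Messages of Tdg (chr10:82629828-82650799, plus strand) were near the limit of counting, with 9 to 37 reads per library. Its log2 values were -0.32, -0.95 and -1.71 in control, -1.70, -1.37 and -1.55 at 8 h of BMH-21 and -0.65, -1.57 and -1.23 at 8 h of CX-5461, and the groups overlapped. With all genes admitted to the fit the BMH-21 difference at 8 h was -0.54 (SE 0.36, limma adjusted p = 0.19), and none of its 12 comparisons passed. Of its transcript's 50-base words 66.3% also occur in 5 other genes, with 47.4% in the processed pseudogene Tdg-ps. Its count is uncertain, since how reads that map to several places were treated is not given in the sources used here.

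The 2 inhibitors were then set against each other at the same dose and time, which does not use the control. At 2 h 0 of 9 genes passed in either direction with limma, where 2.47% of all genes were higher in BMH-21 and 1.52% lower. Of the 9, 2 had an unadjusted p under 0.05, Dnmt3a at 0.24 (95% interval 0.03 to 0.44) and Uhrf2 at 0.28 (0.05 to 0.50), and after centring these 2 passed as higher in BMH-21 (7.83% of all genes were higher and 7.58% lower). The interval for Dnmt3b ran from -0.06 to 0.35, for Tet2 from -0.01 to 0.48 and for Tet3 from -0.30 to 0.19. At 4 h 1 gene was higher and 1 lower in BMH-21, where 9.35% and 8.49% of all genes were. Uhrf2 was higher by 0.50 (SE 0.11, limma adjusted p = 3.9e-04) and Tet2 lower, at -0.43 (SE 0.12, adjusted p = 0.0065). The Tet2 difference did not pass with its own variance (adjusted p = 0.17), nor without BMH-21 4 h replicate 3 (-0.32) or CX-5461 4 h replicate 2 (-0.30). After centring 5 genes were higher and 1 lower at 4 h (27.4% and 18.5% of all genes), and with median-ratio factors 1 and 1 (17.6% and 24.1%).

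At 8 h the inhibitors had parted. In BMH-21 1 gene was higher and 7 were lower than in CX-5461, near the 12% and 67.2% of all genes. The median difference was -0.98 for the 9 genes, against -0.48 for all genes. Centring removed a shift of -0.43 from this comparison, which the deposited differences below include. Dnmt3b was lower by a log2 difference of -1.31 (SE 0.10, limma adjusted p = 2.2e-22) and Dnmt3l by one of -1.06 (adjusted p = 1.4e-17). Tet2 differed by -1.45 (SE 0.12, adjusted p = 1.6e-20) and Tet1 by -0.99 (adjusted p = 4.9e-13). Tet3 was higher in BMH-21 by 1.01 (adjusted p = 2.6e-12), with all 3 libraries above all 3 of CX-5461. Dnmt3a differed by -0.98 (adjusted p = 3.8e-15) and Uhrf1 by -0.72 (adjusted p = 8.2e-10), again with no overlap.

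After centring 2 genes were higher and 6 lower in BMH-21 at 8 h (31.1% and 40.6% of all genes). Dnmt1 went from -0.43 (limma adjusted p = 1.1e-04) as deposited to -0.00 (adjusted p = 0.96). Uhrf2 went from -0.22 (adjusted p = 0.069) to 0.21 (adjusted p = 7.6e-04). The other 7 kept their direction and passed, from -1.02 for Tet2 and -0.88 for Dnmt3b to -0.29 for Uhrf1, and 1.44 for Tet3.

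Between 4 and 8 h Dnmt3b, Dnmt3l, Tet1 and Uhrf1 went on falling in BMH-21. In CX-5461 Dnmt3b fell further as well, Tet3 fell, and Dnmt3a and Tet2 rose. In BMH-21 0 of 9 rose and 6 fell, where 18.6% of all genes rose and 37.8% fell, and with median-ratio factors 0 rose and 6 fell (36.7% and 32.5% of all genes). The largest falls were of Dnmt3b, by 1.74 (SE 0.10, limma adjusted p = 6.2e-31), and of Dnmt3l, by 1.24 (adjusted p = 3.4e-21). Tet1 fell by 0.85 and Uhrf1 by 0.59 (adjusted p = 5.1e-10 and 4.2e-07). Uhrf2, which was not counted as fallen at 4 h, fell by 0.44 (adjusted p = 4.2e-04, centred -0.38) and passed under every scaling. The Dnmt3a fall of 0.34 (adjusted p = 0.0034) was -0.23 without BMH-21 8 h replicate 2 (adjusted p = 0.066) and turned to 0.02 with quantile normalization. Tet2 and Tet3 had changed by 4 h and their further differences, -0.24 and -0.17, did not pass (adjusted p = 0.087 and 0.25). Without replicate 2 of BMH-21 at 8 h these 2 were 0.04 and 0.02.

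In CX-5461 5 genes rose and 2 fell from 4 to 8 h, where 58.8% of all genes rose and 4.85% fell, and after centring 2 rose and 4 fell (25.8% and 32% of all genes). The 5 became 2 without CX-5461 4 h replicate 1 and 3 without CX-5461 8 h replicate 1. The 2 rises that held under centring were of Dnmt3a, by 0.75 (SE 0.10, limma adjusted p = 7.0e-10, centred 0.38), and Tet2, by 0.77 (SE 0.12, adjusted p = 4.6e-08, centred 0.40). Tet3 fell by 1.11 (adjusted p = 2.0e-13, centred -1.48), and only 0.6% of tested genes had a lower difference. Dnmt3b fell further, by 0.30 (adjusted p = 0.010, centred -0.67), or 0.22 without CX-5461 4 h replicate 2 (adjusted p = 0.067). Dnmt3l differed by only -0.03 as deposited (adjusted p = 0.77). It passed as lower after centring (-0.41), with median-ratio factors (-0.40) and with quantile normalization (-0.24). Uhrf1 rose by 0.24 as deposited (adjusted p = 0.036) but fell by 0.13 after centring (adjusted p = 0.0062), so its direction is set by the scaling. The rises of Dnmt1, 0.30, and Uhrf2, 0.27, likewise turned to -0.07 and -0.10.

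The difference between these courses was tested directly as the CX-5461 change from 4 to 8 h minus the BMH-21 change. It passed for all 9 genes, positive for 8 and negative for Tet3, where 61.4% of all genes were positive and 7.98% negative. Dnmt3b had the largest, 1.45 (SE 0.15, limma adjusted p = 2.6e-15), and Dnmt3a 1.09 (adjusted p = 3.4e-10). For Tet3 the value was -0.94 (SE 0.18, adjusted p = 2.3e-06). After centring 7 were positive and 1 negative (36.2% and 24% of all genes), where Dnmt1 stood at -0.01 (adjusted p = 0.86), and with median-ratio factors the count was 7 and 1 again (27.6% and 30.3% of all genes). Without BMH-21 8 h replicate 2 Dnmt1 gave 0.30 (adjusted p = 0.064).

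Genes that act with these enzymes were counted by list, and each count is to be read against all genes, of which 24.5% rose and 56.9% fell at 8 h of BMH-21 and 35.1% rose and 14.3% fell at 8 h of CX-5461. Of 12 partners of maintenance methylation, 0 rose and 12 fell at 8 h of BMH-21, with a median log2 difference of -1.31 against -0.40 for all genes. At 8 h of CX-5461 0 rose and 9 fell, with a median of -0.35 against 0.11, and after centring 0 rose and 12 fell, where 44.7% of all genes fell. Zfp57, a zinc finger protein that keeps imprinted regions methylated, fell by 2.14, and Trim28, its corepressor, by 1.84 at 8 h of BMH-21 (limma adjusted p = 7.1e-40 and 6.7e-38). In CX-5461 Trim28 fell by 0.85 and Cdca7, which targets the remodeller HELLS to chromatin, by 0.65 (adjusted p = 6.0e-14 and 6.9e-08). Of 20 DNA replication genes 0 rose and 18 fell at 8 h of BMH-21, with a median of -0.81 against -0.40 for all genes, led by Ccne1 at -1.50 (adjusted p = 8.3e-28) and Cdt1 at -1.15 (adjusted p = 2.1e-19). At 8 h of CX-5461 1 rose and 9 fell as deposited, and 0 rose and 19 fell after centring, where 29.3% of all genes rose and 44.7% fell.

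Of 14 listed regulators and partners of DNMT3 and TET enzymes 13 were tested, and 3 rose and 9 fell at 8 h of BMH-21, where 24.5% of all genes rose and 56.9% fell. These counts are near that background, while the list's median was -1.17 against -0.40. Prdm14, which represses the Dnmt3 genes in embryonic stem cells, fell by 2.98 (SE 0.12, limma adjusted p = 8.3e-47). Dnmt3b and Dnmt3l fell there too, and any link between these falls was not tested. Lin28a, an RNA-binding protein that blocks let-7 maturation, fell by 3.11 in BMH-21 and 1.23 in CX-5461 at 8 h (adjusted p = 6.0e-57 and 7.6e-21). Gadd45g, a stress-induced gene, rose by 0.82 and 0.98 (adjusted p = 1.1e-09 and 3.4e-12). Cxxc4, whose product binds TET2, rose by 2.01 and 1.85 (adjusted p = 1.5e-09 and 5.8e-08) from as few as 9 reads. At 8 h of CX-5461 3 of the 13 rose and 4 fell (35.1% and 14.3% of all genes), and 3 rose and 9 fell after centring (29.3% and 44.7%). Dppa3, which protects methylation in the zygote, was among those that fell there, by 0.65 (adjusted p = 3.2e-07).

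Of 14 base excision repair genes 1 rose and 10 fell at 8 h of BMH-21, where 24.5% of all genes rose and 56.9% fell, with a median of -0.63 against -0.40. At 8 h of CX-5461 4 rose and 3 fell, near the 35.1% and 14.3% of all genes. The list's median of 0.11 equalled that of all genes. After centring 4 rose and 7 fell there, where 29.3% of all genes rose and 44.7% fell. Apex1, the abasic site nuclease, fell by 1.73 in BMH-21 and 0.46 in CX-5461 (limma adjusted p = 6.2e-30 and 2.3e-04). The scaffold Xrcc1 rose by 1.10 and 0.85 (adjusted p = 5.7e-18 and 5.0e-12), while Lig3, the ligase it binds, fell by 1.17 in BMH-21 (adjusted p = 1.2e-18). Of 14 genes of methyl donor and 2-oxoglutarate metabolism 2 rose and 12 fell at 8 h of BMH-21, with a median of -0.60 against -0.40 for all genes, and with median-ratio factors 3 rose and 7 fell (39.2% and 43.3% of all genes). Mat2a, which makes S-adenosylmethionine, fell by 1.60 and Shmt1 of the folate cycle by 1.65 (adjusted p = 6.7e-30 and 8.0e-31), and Idh1, a source of 2-oxoglutarate, rose by 0.62 (adjusted p = 1.1e-07). In CX-5461 2 of the 14 rose and 3 fell as deposited (35.1% and 14.3% of all genes), and 1 rose and 11 fell after centring (29.3% and 44.7%).

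Of 8 readers of methylated CpG, 2 rose and 4 fell at 8 h of BMH-21 and 4 rose and 1 fell at 8 h of CX-5461, both near the shares of all genes (24.5% and 56.9%, then 35.1% and 14.3%). After centring both counts were 3 and 3 (33.3% and 51.3%, then 29.3% and 44.7% of all genes). Mbd3 fell by 1.01 in BMH-21 and 0.25 in CX-5461 (limma adjusted p = 2.8e-16 and 0.040), and Mbd2 rose by 0.52 in BMH-21 (adjusted p = 2.7e-05). Of 12 germline genes listed as targets of promoter methylation 11 were tested, and 3 rose and 5 fell at 8 h of each inhibitor. Of all genes 24.5% rose and 56.9% fell at 8 h of BMH-21, but 35.1% rose and 14.3% fell at 8 h of CX-5461. The list's medians were -0.25 and 0.10, against -0.40 and 0.11 for all genes. After centring 4 rose and 4 fell in BMH-21 and 2 rose and 5 fell in CX-5461. Several were not silent in control cells, such as Hormad1 at a log2 value of 4.38, Mael at 3.92 and Sycp1 at 3.50. Mael fell by 1.65 and 0.96 (adjusted p = 3.6e-25 and 1.6e-11) and Hormad1 rose by 0.78 and 0.62 (adjusted p = 4.5e-10 and 1.1e-06).

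**Figure D5:**
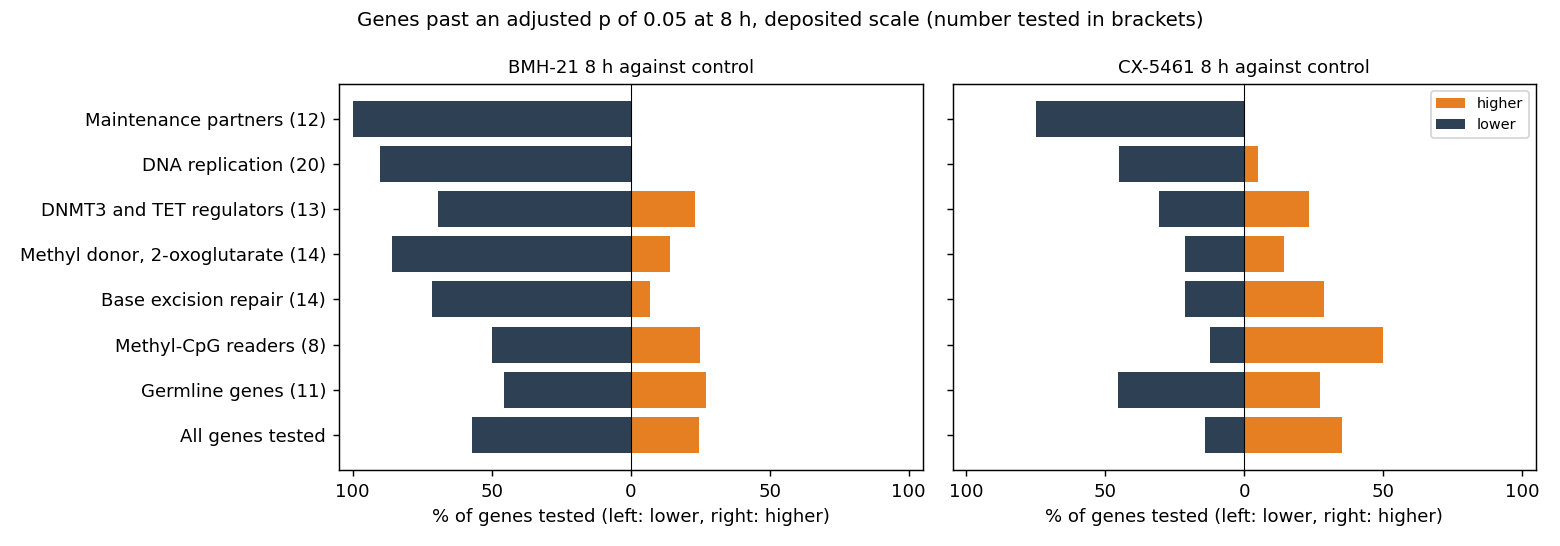
Percent of the tested genes of each list (horizontal axis, lower to the left and higher to the right) past an adjusted p of 0.05 at 8 h against control on the deposited scale; the number tested is in brackets and the last bar is all genes. The 12 maintenance partners all lie to the left in BMH-21, where 56.9% of all genes were lower.

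The likeness of each gene to all others was described by Pearson's r over the 21 centred libraries, which share treatments and scaling. Dnmt3b was most like Tcof1 (0.998) and Kpnb1 (0.996), and Dnmt3l most like Sars (0.998). Dnmt3a lay closest to Tle4 (0.984), Tet2 to Pogz (0.989), Tet3 to Yeats2 (0.992) and Uhrf1 to Fgd1 (0.994). Tet1 lay closest to Zfp532 (0.975), Uhrf2 to Kif23 (0.919) and Dnmt1 to Golga3 (0.802). Among the 9 genes themselves the closest pair was Dnmt3b with Dnmt3l (0.990). Within the set Uhrf1 was most like Dnmt3l (0.956), and Dnmt3a and Tet2 were most like each other (0.940). The most opposite pair was Dnmt3a with Tet3 (-0.896).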

How the data were processed

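Poly(A) RNA of the 21 libraries was made with a directional kit, per the labels' protocols. The submitters' processing notes name mm10, Trim Galore 0.5.0, TopHat2 2.1.1, R 4.0.5, DESeq2 1.30.1, edgeR 3.32.1 and limma 3.46.0. The deposited unit is log2 expression, which the authors computed with voom per the file headers. With each library's lowest value taken as no reads, every value matched a whole number of reads plus 0.5, to within 1.7e-08. The read counts and read ratios given here rest on that step. No count model was run on a log2 table.

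limma 3.58.1 in R 4.3.3 was fitted here to the 7 group means, with a variance trend, two-sided tests and Benjamini-Hochberg adjustment. Genes needed a log2 value above 0 in at least 3 libraries, so 14666 were tested and 6234 were not. The code was tested on simulated data. Alternatives were other scalings, filters, offsets, weights and variance models, a replicate block, and leaving out each library.

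Named were the 10 genes, the 2 largest rises and falls of each list at 8 h, and the nearest genes by r. The genes, lists and rules were chosen with earlier results of these data known. Gene models were GENCODE on GRCm38 and promoters RefSeq on GRCm38.p6.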

Additional observations from a re-analysis of the deposited data

Results flagged for a closer look

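For all 9 tested genes the change from 4 to 8 h differed between the inhibitors by limma's interaction contrast, taken as the CX-5461 change minus the BMH-21 change on the deposited log2 scale. The difference was 1.45 for Dnmt3b (SE 0.15), 1.21 for Dnmt3l (SE 0.14) and 1.09 for Dnmt3a (SE 0.15). Tet1 gave 1.01 (SE 0.17), Tet2 1.01 (SE 0.17) and Tet3 -0.94 (SE 0.18). Uhrf1 gave 0.83 (SE 0.15), Uhrf2 0.72 (SE 0.16) and Dnmt1 0.42 (SE 0.15). Adjusted p ranged from 2.6e-15 for Dnmt3b to 0.0080 for Dnmt1. The median over all tested genes was 0.52, with 61.4% of them positive and 7.98% negative past the same threshold. After centring Dnmt1 was at -0.01.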

How the results depend on the processing

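Of 108 member results (9 genes in 12 comparisons) 69 passed on the deposited scale. Of these, 62 kept their direction and 57 also passed under centring, median-ratio factors and quantile normalization. An offset of 5 reads and voom weights changed none of the 108. Fitting only the groups compared moved 2 across the threshold. A scaling factor moves all genes of a library together by construction. For the other settings the cause was not tested. Depth limits Tdg most, with 9 to 37 reads per library, where 3 reads correspond to a log2 value of -4.63 to -3.59.

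Centring changed the sign of 13 results, mostly small ones. Against control these were Uhrf2 at 2 and 4 h of BMH-21 (0.02 and 0.14) and Dnmt1 at 4 and 8 h of CX-5461 (0.01 and -0.06). Between inhibitors they were Dnmt3l, Uhrf1 and Dnmt1 at 2 h (-0.03, -0.03 and -0.04) and Uhrf2 at 8 h (0.21). In CX-5461 from 4 to 8 h they were Tet1, Uhrf1, Uhrf2 and Dnmt1 (-0.22, -0.13, -0.10 and -0.07), and the difference of the 4 to 8 h changes was -0.01 for Dnmt1. The share of all tested genes with the same call follows each count in brackets. After centring the number of genes that fell at 2 h of BMH-21 was 0 (17.5%), and the number that rose was 2 (32.2%) at 4 h of BMH-21, 1 (15.8%) at 2 h of CX-5461 and 0 (29.3%) at 8 h of CX-5461. Higher in BMH-21 than in CX-5461 were 2 (7.83%), 5 (27.4%) and 2 (31.1%) genes at 2, 4 and 8 h. From 4 to 8 h of CX-5461 2 rose (25.8%) and 4 fell (32%).

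Median-ratio factors changed the sign of 20 results. Against control these were Uhrf2 at 2 and 4 h of BMH-21 (0.03 and 0.17), Dnmt1 at 4 and 8 h of BMH-21 (0.02 and 0.08), Uhrf1 at 2 h of CX-5461 (0.01) and Dnmt1 at 2 and 4 h of CX-5461 (0.02 and 0.10). Between inhibitors they were Dnmt3l, Uhrf1 and Dnmt1 at 2 h (-0.06, -0.05 and -0.06), Tet1 at 4 h (-0.05), and Uhrf2 and Dnmt1 at 8 h (0.26 and 0.04). From 4 to 8 h they were Tet3 and Dnmt1 in BMH-21 (0.01 and 0.05) and Tet1, Uhrf1, Uhrf2 and Dnmt1 in CX-5461 (-0.21, -0.13, -0.09 and -0.06), with -0.12 for Dnmt1 in the difference of these changes. The number that fell at 2 h of BMH-21 was 0 (16.5%), and the number that rose was 2 (34.4%) at 4 h of BMH-21, 1 (18.8%) at 2 h and 2 (33.3%) at 4 h of CX-5461. Higher in BMH-21 than in CX-5461 were 2 genes (5.48%) at 2 h and 2 (34.4%) at 8 h, and from 4 to 8 h of CX-5461 2 rose (26.4%) and 4 fell (30.9%).

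Quantile normalization changed the sign of 21. Against control these were Uhrf2 at 2 and 4 h of BMH-21 (0.02 and 0.18), Dnmt1 at 4 and 8 h of BMH-21 (0.12 and 0.44), Dnmt3l and Dnmt1 at 2 h of CX-5461 (0.00 and 0.03), Dnmt1 at 4 h (0.27) and Dnmt3a at 8 h of CX-5461 (0.19). Between inhibitors they were Dnmt3l, Uhrf1 and Dnmt1 at 2 h (-0.08, -0.07 and -0.07), Tet1, Dnmt3a and Uhrf1 at 4 h (-0.10, -0.00 and -0.00), and Uhrf2 and Dnmt1 at 8 h (0.24 and 0.07). From 4 to 8 h they were Dnmt3a and Dnmt1 in BMH-21 (0.02 and 0.32) and Tet1 and Uhrf2 in CX-5461 (-0.08 and -0.09), with -0.22 for Dnmt1 in the difference of these changes. The number that fell at 2 h of BMH-21 was 0 (16.7%). The number that rose was 3 (30.4%) at 4 h and 2 (33.5%) at 8 h of BMH-21, and 1 (13.9%), 2 (27.8%) and 2 (27.6%) at 2, 4 and 8 h of CX-5461. Between inhibitors 2 (5.28%) were higher at 2 h, 2 (21.4%) lower at 4 h and 2 (31.4%) higher at 8 h in BMH-21. The genes that rose from 4 to 8 h numbered 1 (31%) in BMH-21 and 2 (28.5%) in CX-5461, and 2 (26%) were negative in the difference of these changes.

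With no filter on low values 0 genes (6.52%) fell at 2 h of BMH-21 and 0 (5%) were lower in BMH-21 at 4 h. With no variance trend these counts were again 0 (9.41%) and 0 (7.25%), 3 (15.3%) fell at 2 h of CX-5461 and 3 (57.2%) rose from 4 to 8 h of CX-5461. With each gene's own variance, added after seeing the data, they were 0 (8.31%) and 0 (6.31%), 2 (13.8%) fell at 2 h and 0 (33.5%) rose at 8 h of CX-5461, and 3 (56.3%) rose from 4 to 8 h of CX-5461.

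Leaving out 1 library at a time gave 702 values, of which 634 kept direction and call. Against control, sign changes left ranges of -0.14 to 0.01 for Uhrf2 and -0.04 to 0.27 for Tet3 at 2 h of BMH-21, -0.12 to 0.05 for Uhrf2 at 4 h of BMH-21, and -0.08 to 0.00 for Dnmt3a at 8 h of CX-5461. Between inhibitors at 2 h the ranges were -0.02 to 0.11 for Dnmt3l, -0.02 to 0.13 for Uhrf1, -0.20 to 0.11 for Tet3 and -0.02 to 0.12 for Dnmt1. At 4 h they were -0.11 to 0.16 for Tet1, -0.01 to 0.19 for Tet3 and -0.08 to 0.06 for Dnmt1. From 4 to 8 h of BMH-21 they were -0.43 to 0.04 for Tet2, -0.29 to 0.02 for Tet3 and -0.18 to 0.00 for Dnmt1, each upper end without BMH-21 8 h replicate 2, and for Dnmt3l in CX-5461 -0.07 to 0.04. The number that fell ranged from 0 to 2 at 2 h of BMH-21 and from 2 to 6 at 2 h of CX-5461, and the number that rose at 8 h of CX-5461 from 0 to 1. Lower in BMH-21 at 4 h were 0 to 1, the 0 without BMH-21 4 h replicate 3 or CX-5461 4 h replicate 2. From 4 to 8 h of CX-5461 2 to 6 rose and 1 to 2 fell, the 1 without CX-5461 4 h replicate 2.

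Replicate numbers are shared by all groups. Over 63 pairs of samples with the same number, deviations from the group means had a median correlation of 0 (-0.25 to 0.11), so the numbers do not pair the samples. With the replicate block the number that fell at 2 h of BMH-21 was 1 (10.3%), since Tet1 missed the threshold (limma adjusted p = 0.051), and the other 107 results kept direction and call.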

Other observations

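Some within-library ratios of reads belong to none of the comparisons above and are given as values, with no test. Dnmt3l over Dnmt3b was 0.950 to 1.05 in control, 1.44 to 1.76 at 8 h of BMH-21 and 1.28 to 1.34 at 8 h of CX-5461. Tet1 over Tet2 was 3.22 to 3.62 in control and highest at 4 h of BMH-21, at 7.66 to 8.70, before it stood at 5.14 to 5.46 at 8 h. Uhrf1 over Uhrf2 was 9.28 to 10.5 in control, 10.6 to 11.9 at 2 h of CX-5461 and 5.84 to 6.28 at 8 h of BMH-21. Dnmt3a over Dnmt1 was 0.953 to 1.01 in control, 0.612 to 0.661 at 4 h of CX-5461 and 0.826 to 0.894 at 8 h.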
